A study of Homo sapiens with 4 samples.

Results

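PPARG, a ligand-activated nuclear receptor, was mapped by chromatin immunoprecipitation and sequencing (ChIP-seq) in NCI-H1993 and NCI-H2347, which are human lung adenocarcinoma lines. Described here are the peaks around 5 genes that encode transcription factors of fat cell differentiation, the C/EBP genes CEBPA, CEBPB and CEBPD and the Krüppel-like factor genes KLF4 and KLF5. Peaks were taken when their midpoint lay within 400 kb of the gene, and 20 of the 3644 peaks in both lists met this rule, 11 of 1419 in NCI-H1993 and 9 of 2225 in NCI-H2347. Both lines carried a bacterial artificial chromosome with PPARG fused to an EGFP-containing LAP tag, and both were grown in RPMI-1640 with 5% FBS. The tagged protein was precipitated with a goat antibody to EGFP, so the lists describe a transgene product and not endogenous PPARG. Each line had 1 ChIP and 1 input library, of which the ChIP peak lists were used. The labels name no treatment, do not explain the abbreviation PIO in the list names, and do not say whether a line is a single clone. With 1 library per line there was no replicate spread and no test between lines, and all values are descriptions of these lists.

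PPARG and C/EBPα are the paired regulators that keep the fat cell state, each maintaining expression of the other. In mouse preadipocyte culture, KLF4 acts early and activates Cebpb, C/EBPβ and C/EBPδ then switch on Pparg and Cebpa, and KLF5 is induced by C/EBPβ and C/EBPδ and activates the Pparg promoter. In lung, C/EBPα is known for its part in the differentiation of airway and alveolar epithelium. C/EBP proteins bind DNA through a basic leucine zipper and KLF proteins through zinc fingers that prefer GC-rich and CACCC-type boxes. PPARG binds, with RXR, repeats of the core AGGTCA separated by a single base.

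Of the 20 peaks, 1 lay within 50 kb of a gene, a peak of NCI-H2347 at 7.9 kb from CEBPA. The other 19 were distal, 11 in NCI-H1993 and 8 in NCI-H2347. Distances had a median of 241 kb in NCI-H1993 (63.7 to 383 kb) and 265 kb in NCI-H2347 (7.9 to 383 kb). The 400 kb limit largely sets these values, since 12.5% of the flanking sequence lies within 50 kb and its middle is at 200 kb, so nothing about these genes is read from them. CEBPA, CEBPB, CEBPD and KLF4 had peaks in both lists, and KLF5 had 0 in either list. The first peaks beyond 400 kb were both near KLF4, at 531 kb in NCI-H1993 (score 71.3) and at 592 kb in NCI-H2347 (score 61.4). Merging overlapping peaks of the lists left 16 distinct sites. A peak at such a distance need not act on the gene named, since other genes lie in the same windows and no contact was measured.

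**Figure D1:**
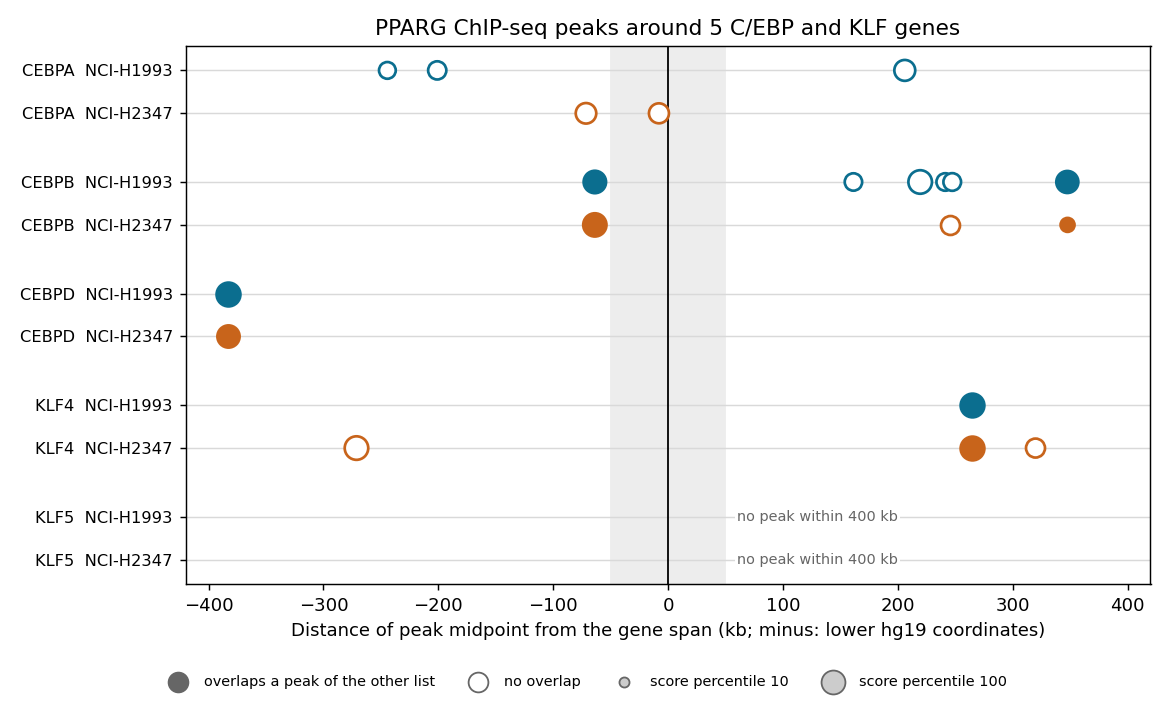
Peaks of both lists placed by the distance of their midpoint from each gene (kb, minus for lower hg19 coordinates), with a row for each gene and cell line, filled circles for peaks that overlap a peak of the other list and circle area growing with the score percentile within the list. The grey band marks 50 kb on either side and holds 1 peak, that of NCI-H2347 at 7.9 kb from CEBPA; the KLF5 rows are empty.

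No peak lay at a promoter of any of the 5 genes at the 1 kb precision of the gene positions. The promoters of CEBPA, the gene with the nearest peak, and of KLF4, the gene with the site ranked highly in both lists, are shown for what stands there without a called peak. Each line gives the 250 bases before the transcription start on GRCh38.p14 from RefSeq, on the minus strand, at chr19:33302535-33302784 for CEBPA and chr9:107489770-107490019 for KLF4. Capitals mark the GC box GGGCGG on either strand, the kind of element that KLF proteins prefer.
CEBPA: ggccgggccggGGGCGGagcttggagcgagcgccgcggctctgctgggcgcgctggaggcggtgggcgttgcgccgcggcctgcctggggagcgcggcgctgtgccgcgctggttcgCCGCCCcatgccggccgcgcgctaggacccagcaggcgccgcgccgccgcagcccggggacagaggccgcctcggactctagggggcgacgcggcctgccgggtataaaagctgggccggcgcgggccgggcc
KLF4: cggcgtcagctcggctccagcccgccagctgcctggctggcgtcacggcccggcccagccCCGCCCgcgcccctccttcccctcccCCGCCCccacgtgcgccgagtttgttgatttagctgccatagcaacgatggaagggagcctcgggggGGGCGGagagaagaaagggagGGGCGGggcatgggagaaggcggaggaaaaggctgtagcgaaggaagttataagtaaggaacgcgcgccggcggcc
The CEBPA window held 2 GC boxes and the KLF4 window 4. The window was 81.2% G and C for CEBPA and 69.2% for KLF4, against a median of 58.0% over 35116 RefSeq promoter windows of the same length. The table held 6 promoters for 4 of the genes, with none used for CEBPD. Of these 6, 5 held a GC box, which 42.6% of all 35116 held. The core AGGTCA, searched on both strands, was in 0 of the 6 and in 12.1% of all. The repeat of AGGTCA, any base and AGGTCA again was in 0 of the 6 and in 0.0171% of all. These letters describe the windows and say nothing of the bound sites, whose sequence was not used here.

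KLF4, a zinc finger factor of early adipogenesis that also acts in epithelial differentiation, had the site that stood high in both lists. KLF4 spans 110247 to 110253 kb of chromosome 9 on hg19. The site lay upstream of the gene, 265 kb away in both lines. It spanned chr9:110517332-110518175 in NCI-H1993, where it scored 223 and ranked 24 of 1419. In NCI-H2347 it spanned chr9:110517345-110518252, scored 378 and ranked 28 of 2225. The score was set by the authors for every peak and ranks peaks only within a list. The peak was thus in the top 1.69% of the NCI-H1993 list and the top 1.26% of the NCI-H2347 list. The peaks overlapped by 831 bp, and their midpoints were 45.0 bp apart, against a median of 76.3 bp over the 486 pairs of overlapping peaks. Other shared sites also stood in the upper part of both lists. The CEBPD site was in the top 0.705% of the NCI-H1993 list and the top 14.9% of the NCI-H2347 list. For the upstream CEBPB site these values were 13.1% and 5.71%. The KLF4 site was picked out with its values in view. How many of the 486 pairs stood as high in both lists was not counted.

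NCI-H2347 had 2 further peaks around KLF4, and NCI-H1993 had no other. The stronger one was downstream, at chr9:109975172-109976499 and 271 kb from the gene, with a score of 284 and rank 72. It was 1328 bp wide and 259 kb from the nearest NCI-H1993 peak. The weaker one was upstream at chr9:110572486-110573267, 320 kb from KLF4, with a score of 88.3 and rank 897. That peak lay 54.2 kb beyond the shared site. By gene order on GRCh38.p14, the nearest protein-coding neighbours of KLF4 are RAD23B on the lower side and ACTL7B on the higher side.

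KLF5, a zinc finger factor of epithelial proliferation and of adipogenesis, had no peak within 400 kb and lay in a long stretch without peaks. The gene spans 73629 to 73652 kb of chromosome 13. The nearest peak on the higher side was the same site in both lists, 5.58 Mb away. It spanned chr13:79232454-79232920 in NCI-H1993, where it scored 61.1, and chr13:79232339-79232936 in NCI-H2347, where it scored 57.6. On the lower side the nearest peak was 28.1 Mb away in NCI-H1993, where it scored 67.1, and 21.5 Mb away in NCI-H2347, where it scored 54.7. A stretch of 27.1 Mb around KLF5 held no peak of either list. It was bounded by NCI-H2347 peaks that ranked 1900 and 1731 of 2225, in a list whose lowest score was 50.05. Its length thus rests on weak peaks. Among 3127 stretches between neighbouring peaks of either list on chromosomes 1 to 22 and X, 2 (0.064%) were at least as long, this one included, and the median was 313 kb. The longer one was on chromosome 9, with 29.2 Mb. Each stretch counts once in the 0.064%, whatever its length. Long stretches cover more sequence, so the share of gene positions in stretches this long is larger. The 0.064% therefore does not say how rare the setting of KLF5 is. Chromosome 13 held 14 peaks in NCI-H1993 (0.987% of the list) and 23 in NCI-H2347 (1.03%). The read depth and mappability behind the stretch are unknown, so absence of PPARG from KLF5 cannot be told apart from signal under the calling threshold.

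CEBPB, whose product C/EBPβ is an early activator of the adipogenic programme and a mediator of inflammatory signals, had the most peaks of the 5 genes in NCI-H1993. The gene spans 48807 to 48810 kb of chromosome 20 on the plus strand. There were 6 peaks in NCI-H1993 and 3 in NCI-H2347, and 2 sites were shared. In each list 1 peak lay upstream of the gene and the others downstream, 5 in NCI-H1993 and 2 in NCI-H2347.

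The shared site nearest to CEBPB was 63.7 kb upstream in both lines. It spanned chr20:48742828-48743813 in NCI-H1993, where it scored 128 and ranked 186 of 1419. In NCI-H2347 it spanned chr20:48742832-48743819, scored 235 and ranked 127 of 2225. The peaks coincided almost exactly, with 982 bp of overlap and midpoints 5.00 bp apart, and 96.7% of the 486 pairs had midpoints at least that far apart. The other shared site was 348 kb downstream, at chr20:49157153-49158000 in NCI-H1993 and chr20:49157379-49158243 in NCI-H2347. Its score was 117 and its rank 231 in NCI-H1993, against a score of 60.5 and rank 1605 in NCI-H2347. It was therefore in the upper part of the first list and the lower part of the second, since 83.7% of the NCI-H1993 list and 27.9% of the NCI-H2347 list scored lower, 55.9 percentage points apart. Of the 486 pairs, 37 (7.61%) had an NCI-H1993 percentage at least as far above that of NCI-H2347. The midpoints of this site were 235 bp apart, and 8.64% of pairs were at least as far apart. Both differences were the largest among the shared sites around the genes, and were picked out with their values in view. The 7.61% and 8.64% therefore do not say how unusual the site is.

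Downstream of CEBPB, between the shared sites, 4 peaks were crowded into a stretch of 29.1 kb, 3 from NCI-H1993 and 1 from NCI-H2347, and no pair across the lists overlapped. The strongest was the NCI-H1993 peak at chr20:49028671-49030233, 219.5 kb from CEBPB, with a score of 195.5 and rank 46. At 1563 bp it was the widest of the 20 peaks. The other NCI-H1993 peaks of this stretch, at chr20:49050809-49051708 and chr20:49056950-49057801, had scores of 69.6 and 70.1. The NCI-H2347 peak, at chr20:49055312-49056183 with a score of 87.9 and rank 905, fell between these weaker NCI-H1993 peaks. It was 766 bp from the one and 3.60 kb from the other.

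The lines thus had peaks side by side there that were not counted as shared. Of the 7 unshared NCI-H1993 peaks around the genes, 2 had an NCI-H2347 peak within 10 kb, both at this stretch. That is 28.6% (95% Wilson interval 8.22% to 64.1%), against 5.57% of the 933 unshared peaks of the list. Both lie beside the same NCI-H2347 peak, in a stretch picked out with its values in view. The interval takes them as separate peaks, so it cannot show that the share differs from that of the list. In NCI-H2347 it was 1 of 5 unshared peaks (3.62% to 62.4%), against 4.65% of 1742 in the list. The weaker NCI-H1993 peaks were 5.24 kb apart. Thus 2 of the 11 NCI-H1993 peaks had an own-list peak within 10 kb (5.14% to 47.7%), against 8.17% of the list. In NCI-H2347 it was 0 of 9 (95% Wilson interval 0% to 29.9%), against 14.8% of the list. The 2 of 7, 1 of 5 and 2 of 11 all count the same adjacent peaks, so they are not separate results. The remaining NCI-H1993 peak around CEBPB was at chr20:48970818-48971981, 161 kb downstream, with a score of 68.9. By gene order, PTPN1 is the next protein-coding gene on the higher side of CEBPB, LOC124904927 the next on the lower side and PEDS1 the one after it.

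**Figure D2:**
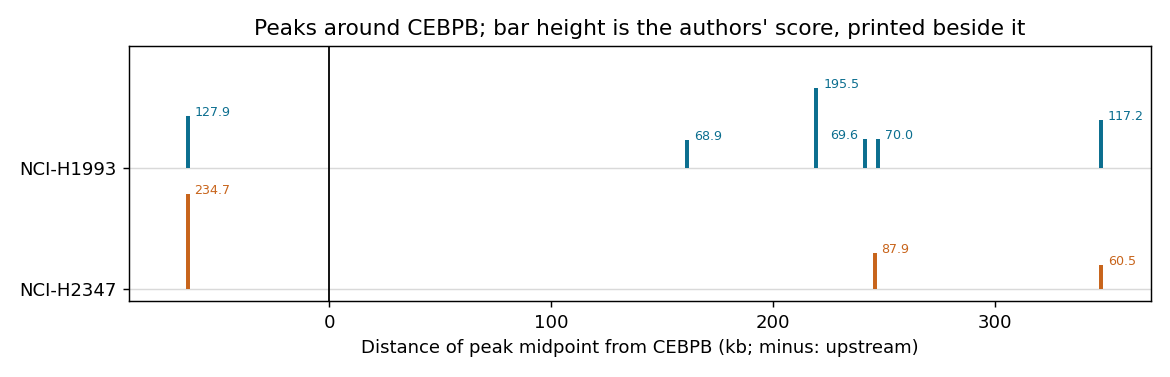
Peaks around CEBPB placed by the distance of their midpoint from the gene (kb, minus for upstream), with NCI-H1993 above NCI-H2347 and bar height and printed number giving the authors' score, which is not on a common scale for the lists. The upstream site stands in both rows at 63.7 kb, while the NCI-H1993 peak with a score of 195.5 has no NCI-H2347 peak on it.

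CEBPD, whose product C/EBPδ acts beside C/EBPβ early in adipogenesis and in acute inflammatory responses, had a single peak in each list, and the peaks overlapped. The gene spans 48649 to 48651 kb of chromosome 8, and the site lay 383 kb away at lower coordinates, near the limit of 400 kb. It spanned chr8:48265588-48266565 in NCI-H1993 and chr8:48265457-48266593 in NCI-H2347. The NCI-H1993 peak had a score of 289, rank 10 of 1419, the highest of the 11 peaks of that list around the genes. The NCI-H2347 peak had a score of 157, rank 332 of 2225. The whole NCI-H1993 peak lay inside the NCI-H2347 one, with 978 bp of overlap and midpoints 51.5 bp apart. SPIDR on the lower side and PRKDC on the higher side are the nearest protein-coding genes in GRCh38.p14 order. No peak lay closer to CEBPD in either list, and the strand of the gene was not in the table used.

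CEBPA, whose product C/EBPα sustains the fat cell state together with PPARG, had peaks in both lists but no shared site. The gene spans 33790 to 33794 kb of chromosome 19 on the minus strand. NCI-H1993 had 3 peaks, none nearer than 201 kb, and NCI-H2347 had 2. The NCI-H2347 peak at chr19:33781706-33782421 lay downstream of the gene, 7.9 kb from its end, with a score of 100.3 and rank 733 of 2225. The other NCI-H2347 peak was 71.4 kb downstream at chr19:33718328-33718845, with a score of 109 and rank 638. Of the NCI-H2347 list, 67.1% scored lower than the nearer peak and 71.3% lower than the other.

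In NCI-H1993 the peaks around CEBPA stood at other places. The downstream ones were at chr19:33588872-33589320, 201 kb away, with a score of 73.1 and rank 651 of 1419, and at chr19:33545460-33545965, 244 kb away, with a score of 66.3 and rank 791. The upstream one was at chr19:33999669-34000514, 206 kb away, with a score of 96.9 and rank 366. The nearest peaks of different lists here were 129 kb apart. CEBPG, another C/EBP family gene, is the next protein-coding gene on the higher side of CEBPA, and SLC7A10 the next on the lower side. The NCI-H2347 peaks near CEBPA had no counterpart above the authors' threshold in NCI-H1993, and signal under the threshold could not be examined.

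Sharing between lines was found at 4 sites. In NCI-H1993, 4 of 11 peaks were shared, or 36.4% (95% Wilson interval 15.2% to 64.6%), close to the 34.2% of the whole list. In NCI-H2347, 4 of 9 were shared, or 44.4% (18.9% to 73.3%), against 21.7% of the whole list, which lies inside that interval. Intervals cover counting error only. The sites were 2 around CEBPB, 1 around CEBPD and 1 around KLF4, while 0 of the 5 peaks around CEBPA were shared.

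**Figure D3:**
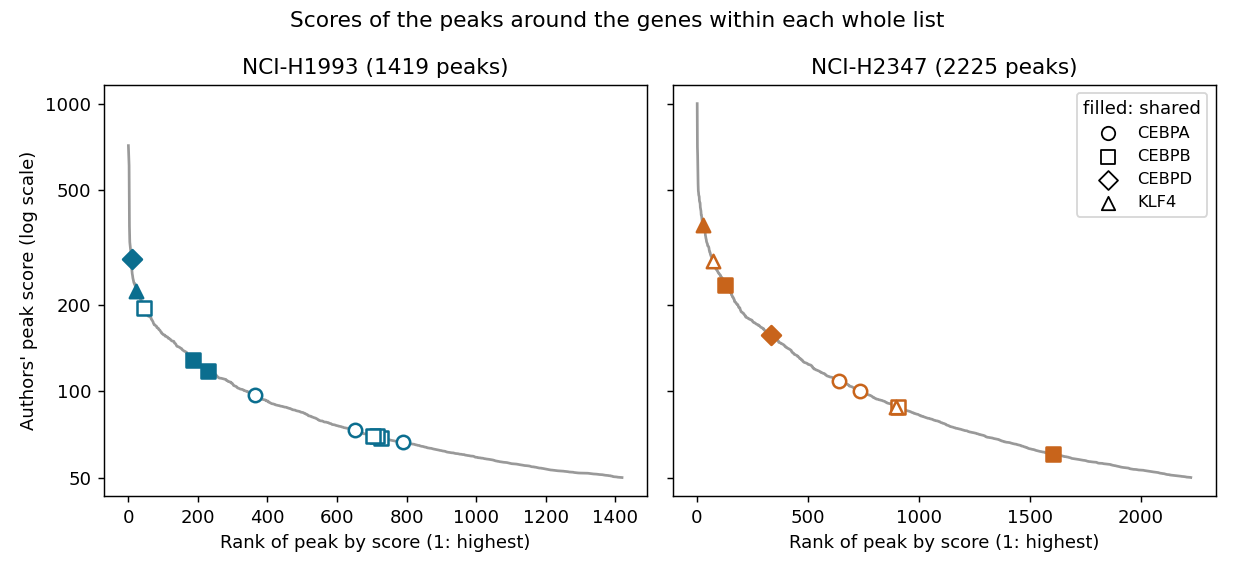
Authors' score (log scale) against rank for every peak of each list (grey line), with the peaks around the genes marked by gene and filled where shared, NCI-H1993 on the left and NCI-H2347 on the right. The KLF4 site stands near the top of both lists at ranks 24 and 28, and the lowest-ranked peak is the shared downstream CEBPB peak at rank 1605 in NCI-H2347.

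The peaks around the genes had scores mostly in the upper part of their lists. In NCI-H1993 the median score of the 11 peaks was 96.9 (66.3 to 289), against 69.8 for the whole list. The median percentile, the percent of the list with a lower score, was 74.2. In NCI-H2347 the median of the 9 peaks was 109 (60.5 to 378), against 77.1, and the median percentile was 71.3. Among peaks up to 1000 kb from the genes the median percentile was lower, at 53.3 for NCI-H1993 and 59.7 for NCI-H2347. The top 10% of the list held 3 of the 11 NCI-H1993 peaks, at CEBPD, KLF4 and CEBPB (Wilson interval 9.75% to 56.6%). The 9.94% of the whole list lies inside that interval. For NCI-H2347 the top 10% held 3 of the 9 peaks, the shared KLF4 site, the downstream KLF4 peak and the upstream CEBPB site. The interval was 12.1% to 64.6%, and the 9.98% of that list lies below it. Scores of 100 or more were held by 5 of the 11 NCI-H1993 peaks (21.3% to 72.0%), and the list share of 23.8% lies inside. In NCI-H2347 it was 6 of the 9 peaks (35.4% to 87.9%), and the list share of 33.0% lies below. The NCI-H1993 shares thus cannot be told apart from those of the list. Shared sites count in both lists, so the lists are not separate results.

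Shared and unshared peaks were then looked at apart. Of the 4 shared NCI-H1993 peaks, scores had a median of 175 (117 to 289), against 86.1 for all shared peaks of the list. The 4 shared NCI-H2347 peaks had a median of 196 (60.5 to 378), against 116. The 7 unshared NCI-H1993 peaks had a median of 70.1 (66.3 to 195.5), against 65.4 for all unshared peaks. The 5 unshared NCI-H2347 peaks had a median of 100.3 (87.9 to 284), against 72.1. Scores above these list medians were held by 4 of 4 shared and 7 of 7 unshared peaks in NCI-H1993. In NCI-H2347 it was 3 of 4 shared and 5 of 5 unshared peaks. A list median has as many peaks above it as below. Several unshared NCI-H1993 peaks passed theirs narrowly, with scores of 66.3, 68.9, 69.6 and 70.1. These stood near 69.8, the median of the whole NCI-H1993 list. Widths had a median of 852 bp (449 to 1563 bp) in NCI-H1993, against 731 bp in the list, and 872 bp (518 to 1328 bp) in NCI-H2347, against 832 bp.

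The number of peaks per gene was set beside windows of 800 kb laid end to end along chromosomes 1 to 22 and X, 3761 in all. At least 1 peak was in 24.7% of windows in NCI-H1993 and in 32.0% in NCI-H2347, while 59.1% held a peak of neither list, as around KLF5. The 6 NCI-H1993 peaks around CEBPB were a count reached by 0.16% of windows, or 6 of 3761, in NCI-H1993 and by 0.585% in NCI-H2347. That count was the highest for any of the 5 genes in either list. A highest count picked from several is more often extreme than the count of a gene taken alone. At least 3 peaks, as around CEBPA in NCI-H1993, were in 2.95% of windows. In NCI-H2347, at least 3 peaks, as around CEBPB and KLF4, were in 6.59%. The windows laid end to end include stretches without genes, whereas those around the 5 genes were centred on a gene.

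**Figure D4:**
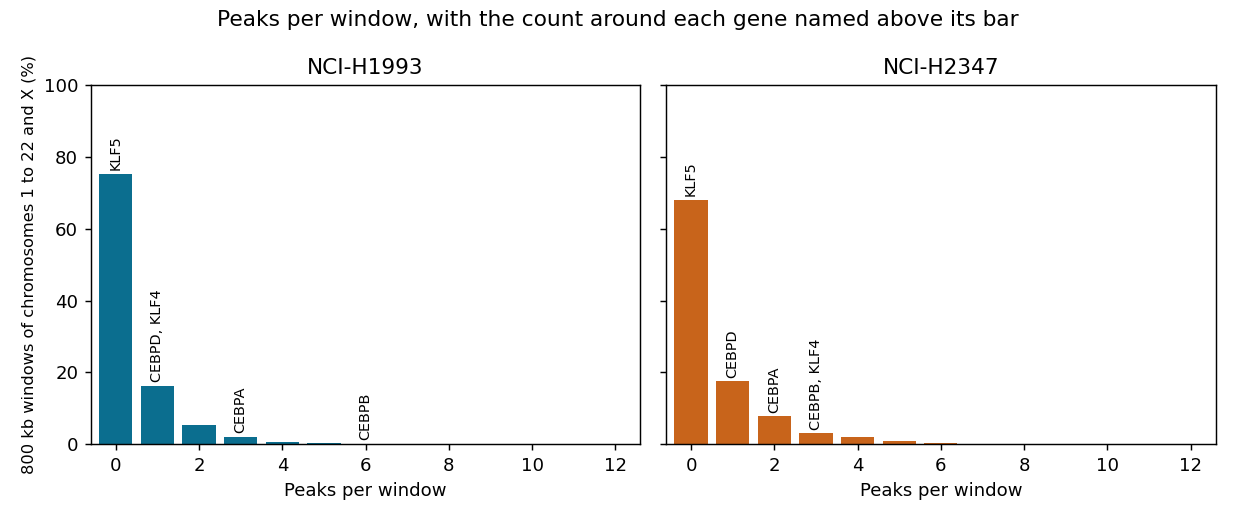
Share of 800 kb windows (%) by number of peaks in each, NCI-H1993 on the left and NCI-H2347 on the right, with each gene named above the bar for the number of peaks within 400 kb of it. CEBPB stands at 6 peaks in NCI-H1993 and at 3 in NCI-H2347, and KLF5 at 0 in both.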

How the data were processed

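PPARG ChIP-seq peak lists of 2 cell lines were used, with 1 library each and without the input samples. Peaks were called with MACS 1.4.2 on hg19, per the submitters' processing notes. Which aligner, filters and threshold were applied, and how input entered, is not given in the sources used here. Read depth is unknown. The deposited score, a value the authors gave each peak, served to order peaks inside a list. Starts were converted to 1-based positions.

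Gene positions on hg19 were known to 1 kb. Distance ran from the peak midpoint to the nearer end of the gene, strand came from the RefSeq promoter table, and sharing meant an overlap of at least 1 bp. Score percentile is the percent of the list with a lower score. Gene names and order came from RefSeq on GRCh38.p14, with no conversion of coordinates. All 5 genes matched the gene table, and 4 the promoter table. The genes and limits were chosen with earlier results of these lists known, and the KLF4 site, the stretches around KLF5 and downstream of CEBPB, and the comparison of CEBPB pairs with all pairs were picked out with their values in view. The named genes were the 5 genes, every peak around them and their nearest protein-coding neighbours. The further C/EBP and KLF genes and PPARG listed for context were not described, apart from CEBPG as a neighbour, since their hg19 positions were not used here. No chance placement was made. Alternatives were other windows, limits, sharing rules and peak filters. The code was tested on simulated peaks. Python 3.11.15, numpy 2.4.6, pandas 2.3.3, scipy 1.17.1 and matplotlib 3.10.9 were used.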

Additional observations from a re-analysis of the deposited data

How the results depend on the processing

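A gene window of 200 kb left 2 peaks in NCI-H1993 and 3 in NCI-H2347, with 1 shared in each and a median percentile of 67.8 in NCI-H1993. With 1000 kb the median percentile fell to 53.3 for NCI-H1993 and 59.7 for NCI-H2347, against 74.2 and 71.3 at 400 kb. Requiring a score of at least 100 left 5 peaks in NCI-H1993, and median percentiles, taken among fewer peaks, were 86.4 in NCI-H1993 and 68.7 in NCI-H2347. Shortening the NCI-H2347 list by score gave 65.8. A near limit of 100 kb gave 1 near peak in NCI-H1993, against 0 at 50 kb, and 3 in NCI-H2347, against 1. The other 37 values stayed within 1.5 times, or within the counting interval for percentiles. No paired analysis was possible because each line has a single ChIP library. Without read depth, no limit of detection can be given for sites that are not listed.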
